A study of Mus musculus with 22 samples.

Results

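Fc receptors are the proteins with which macrophages, neutrophils and other leukocytes bind the constant part of antibodies, and the phagocyte NADPH oxidase is the enzyme with which the same cells make superoxide against what they have engulfed. The 8 genes described here were chosen by name, with earlier results of these data known. They are the IgG receptors Fcgr1, Fcgr2b and Fcgr3, the adaptor chains Fcer1g and Tyrobp, and the oxidase subunits Ncf1, Cybb and Cyba. They are 8 of the 18194 genes with a probe set of their own on the array, and 17 of the 34958 probe sets annotated with 1 gene symbol carried their names. All 8 passed the filter on low signals, which kept a gene whose signal exceeded the median of the array in at least 3 arrays of the model.

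The animals were male C57BL6 mice, 8 weeks old, injected into the peritoneum once daily with diclofenac sodium, a non-steroidal anti-inflammatory drug, at 30 mg/kg, or with saline. Livers were taken on day 1, day 3 and day 14, and whole liver RNA was hybridised to Affymetrix Mouse 430 2.0 arrays. There were 3 diclofenac and 3 saline livers on day 1, 3 and 3 on day 3, and 5 and 5 on day 14, 22 arrays in all with 1 mouse an array. The labels name no modified allele. Because the whole organ was profiled, more or fewer cells of a type and more or less RNA in each such cell cannot be told apart.

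Binding of IgG complexes draws the activating receptors together. In mice FcγRI (Fcgr1, high affinity for IgG) and FcγRIII (Fcgr3, low affinity) carry no signalling motif of their own and need the common γ chain encoded by Fcer1g, whose tyrosine motif (ITAM) recruits the kinase Syk, and Tyrobp (DAP12) is a second ITAM adaptor that serves other receptors of myeloid and NK cells. FcγRIIB (Fcgr2b) is the inhibitory receptor, which carries an inhibitory motif (ITIM) and in the liver is made by sinusoidal endothelium as well as by Kupffer cells, the resident macrophages. Cybb (gp91phox) and Cyba (p22phox) together form the membrane-bound cytochrome of the oxidase, and Ncf1 (p47phox) is the cytosolic organiser that brings the active complex together.

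The genes lie apart in the genome, apart from a cluster on chromosome 1 (GRCm38.p6) that holds Fcgr2b (chr1:170960558-170976071), Fcgr3 (chr1:171051169-171065915) and Fcer1g (chr1:171229572-171234349). Fcgr1 lies at chr3:96282909-96293969, Ncf1 at chr5:134220053-134229628, Tyrobp at chr7:30413782-30417582, Cyba at chr8:122424771-122432940 and Cybb at chrX:9435252-9487766. Promoter windows of 300 bases were taken from RefSeq (GRCm38.p6) for 7 of the 8 genes. They are shown for 3 genes whose windows hold the core of the site of PU.1, the transcription factor of myeloid cells. The core is written GAGGAA or, on the other strand, TTCCTC (capitals). The window of Fcgr2b, which holds none, is shown beside them. Those of Fcer1g, Ncf1 and Cyba, which are not shown, hold none either, so 3 of the 7 windows hold the core. All 4 windows shown are on the minus strand, at chr3:96293920-96294219 for Fcgr1, chr1:171059354-171059653 for Fcgr3, chrX:9469275-9469574 for Cybb and chr1:170976022-170976321 for Fcgr2b.

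Fcgr1: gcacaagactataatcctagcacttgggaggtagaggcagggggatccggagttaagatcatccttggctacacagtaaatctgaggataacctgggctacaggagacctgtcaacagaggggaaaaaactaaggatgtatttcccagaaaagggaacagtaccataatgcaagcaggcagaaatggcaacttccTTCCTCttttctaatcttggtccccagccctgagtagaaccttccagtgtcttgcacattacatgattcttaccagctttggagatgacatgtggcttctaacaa

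Fcgr3: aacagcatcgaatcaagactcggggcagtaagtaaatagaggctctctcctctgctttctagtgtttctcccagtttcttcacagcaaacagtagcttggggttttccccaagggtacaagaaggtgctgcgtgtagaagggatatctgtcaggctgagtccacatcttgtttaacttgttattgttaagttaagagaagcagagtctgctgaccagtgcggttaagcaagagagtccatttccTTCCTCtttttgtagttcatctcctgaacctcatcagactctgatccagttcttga

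Cybb: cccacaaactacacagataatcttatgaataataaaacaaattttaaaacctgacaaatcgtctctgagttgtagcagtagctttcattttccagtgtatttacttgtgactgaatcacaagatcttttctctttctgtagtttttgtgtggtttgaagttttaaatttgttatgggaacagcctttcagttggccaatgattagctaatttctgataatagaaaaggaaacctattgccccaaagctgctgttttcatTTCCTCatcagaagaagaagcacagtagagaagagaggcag

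Fcgr2b: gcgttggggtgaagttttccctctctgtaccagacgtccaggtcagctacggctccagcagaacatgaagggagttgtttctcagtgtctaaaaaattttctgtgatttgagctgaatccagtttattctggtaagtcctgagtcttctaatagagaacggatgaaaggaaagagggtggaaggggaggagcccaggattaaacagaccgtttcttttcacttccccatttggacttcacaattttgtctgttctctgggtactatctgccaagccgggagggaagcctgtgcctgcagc

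The core was found on either strand in 28.3% of 32851 RefSeq promoter windows, so that its presence in Fcgr1, Fcgr3 and Cybb describes these windows only and is not a count of bound sites. The first base of the core stood at position -55 in Fcgr1, -6 in Fcgr3 and 10 in Cybb, counted from the annotated start as 1. For Fcgr3 and Cybb the start in the table lies inside the annotated span of the gene, and for Fcgr3 it is the first of 2 listed. The longer form AGAGGAAG, searched on both strands and overlapping the core, was present in Fcgr1 and Fcgr3 and in 4.55% of all windows. Fcgr1 and Fcgr3 shared the 14-base run TTCCTTCCTCTTTT around the core, the longest run shared by any pair of member windows. It occurred on the same strand in 3 of the 32851 windows and on either strand in 5. The window of Fcgr1 and those of the 2 listed Fcgr3 starts all hold it, so the count describes the windows from which the run was taken.

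The question asked of each gene was whether its signal differed between diclofenac and saline livers on a given day. Except for Fcgr2b, the mean signal of each gene was higher in diclofenac livers on each day, by 1.38 to 1.67 fold on day 1, 1.09 to 1.77 fold on day 3 and 1.55 to 1.92 fold on day 14. Fcgr2b was at 0.958, 1.04 and 0.965 fold. No member passed the test on any day (limma, Benjamini-Hochberg adjusted p under 0.05 over all genes tested). The share of all genes that passed was 0.0% of 12884 on day 1, 0.202% on day 3 and 0.0% of 11884 on day 14. An unadjusted p under 0.05 was found for 1674 genes on day 1 and 1287 genes on day 14, and by the methods' t-test at their threshold 188 genes passed on day 1, Cyba the 1 member among them, and 284 genes and 0 members on day 14. In the single values, 7 of 8 members had a positive log2 difference on day 1 (50.2% of all genes), 8 on day 3 (51.4%) and 7 on day 14 (47.8%). The median difference over the members was 0.65, 0.39 and 0.71 on the log2 scale on days 1, 3 and 14, against 0.00, 0.01 and -0.01 over all genes tested. Unadjusted p lay under 0.05 for 6 members on day 1, for 2 on day 3 and for 0 on day 14, against 13%, 10.8% and 10.8% of all genes (limma). The members' signals went together over the livers, so these counts do not stand for 8 separate observations.

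1 diclofenac liver of day 14, replicate 3, stood apart, and was already known to do so. It had the highest signal of the 10 livers of that day for 8 of 8 members (27.9% of all genes) and more than 2 times the next highest for 7 of 8 (4.4% of all genes). Its mean correlation with the other livers of its group was 0.895, against 0.941 to 0.945 for those 4 livers, over the genes that passed the filter with 1 probe set each. Without it the median difference over the members on day 14 was 0.26, with 7 of 8 positive (49.9% of all genes), and 0 members and 123 of 11742 genes (1.05%) passed the test. For the members, day 14 values are given with and without this liver.

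**Figure D1:**
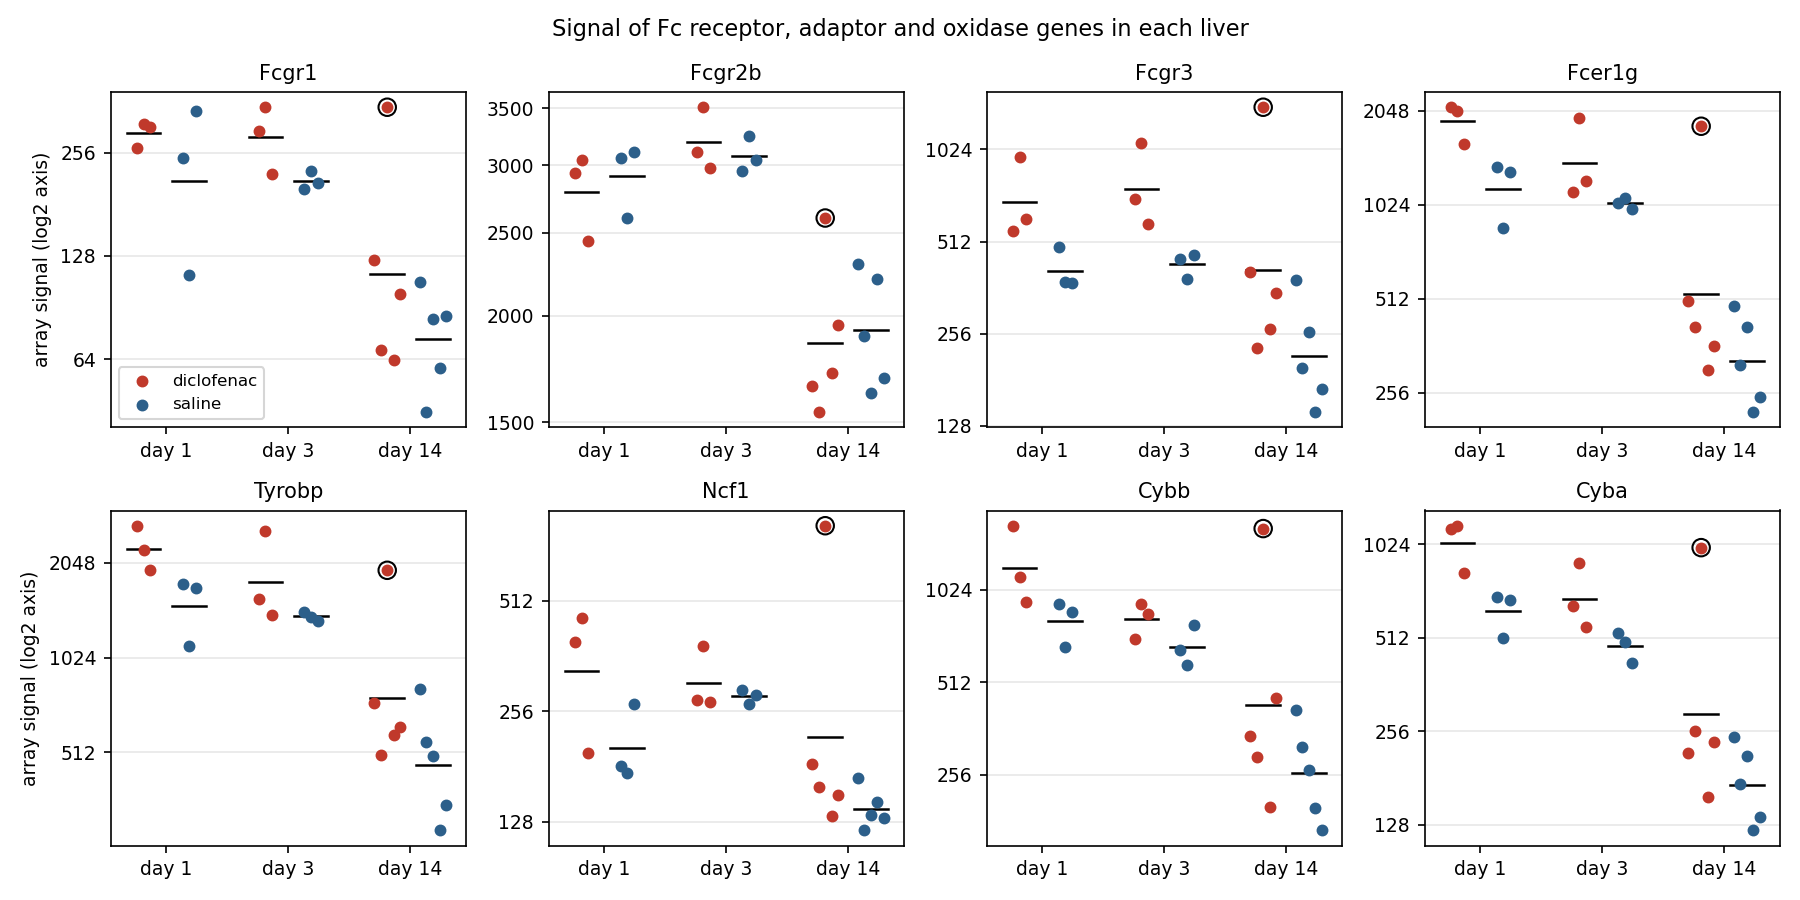
Array signal of the 8 genes in each liver (log2 axis), diclofenac (red) left of saline (blue) on each day, with the geometric mean of each group as a bar and diclofenac day 14 replicate 3 ringed. The ringed liver is the highest of day 14 in all 8 panels, by 2.38 to 4.48 times over the next liver except for Fcgr2b, where it is 1.13 times.

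Among the receptors, Fcgr3 stood farthest apart between the groups. On day 1 its signal was 556, 965 and 605 in diclofenac livers, against 492, 379 and 374 in saline livers. On day 3 it was 703, 1076 and 586 in diclofenac livers, against 449, 385 and 462 in saline livers. All diclofenac livers lay above all saline livers on both days, which was true of 2.11% of all genes. The log2 difference was 0.74 ± 0.24 on day 1 (SE, adjusted p = 0.304, limma) and 0.82 ± 0.24 on day 3 (adjusted p = 0.229). The exact permutation test, two-sided, gave p = 0.1 on either day, the smallest that 3 livers against 3 allow.

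On day 14 the Fcgr3 signals were 408, 229.7, 1407, 266 and 348 in diclofenac livers, against 382, 198, 259, 142 and 169 in saline livers. The groups overlapped, and replicate 3 alone was at 1407. The difference was 0.94 ± 0.45 (adjusted p = 0.486, limma) and, without replicate 3, 0.50 ± 0.27 (adjusted p = 0.477).

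Fcgr1 was dimmer and more scattered. It had 264, 309.9 and 305 in diclofenac livers on day 1, against 246, 113 and 339 in saline livers, and 295, 346 and 222 in diclofenac livers on day 3, against 199.9, 227 and 209 in saline livers. The groups overlapped on both days, with 1 saline liver low on day 1 and another the highest of the 6. The differences were 0.47 ± 0.32 and 0.42 ± 0.32 (adjusted p = 0.546 and 0.676, limma). On day 14 the 5 diclofenac livers ran from 63.8 to 347 with a median of 99.2, against 44.9 to 108 with a median of 83.9 in saline livers, a difference of 0.63 ± 0.45 that was 0.23 ± 0.35 without replicate 3 (adjusted p = 0.624 and 0.849, limma). A second Fcgr1 probe set (1436625_at) gave -0.28 ± 0.44 on day 1 and 0.28 ± 0.44 on day 3, so the direction on day 1 depended on the probe set.

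The inhibitory receptor Fcgr2b lay close to its saline level with the kept probe set, slightly above it on day 3 and slightly below it on days 1 and 14. Its kept probe set (1435477_s_at, whose suffix marks probes that can match more than 1 gene) had 2937, 3041 and 2446 in diclofenac livers on day 1, against 3063, 2606 and 3109 in saline livers. On day 3 it had 3111, 3509.9 and 2983 in diclofenac livers, against 2952, 3249 and 3047 in saline livers. On day 14 it had 1653, 1542, 2603, 1713 and 1949 in diclofenac livers, against 2297, 1895, 1625, 2210.1 and 1689 in saline livers. The groups overlapped on each day, and the differences were -0.06 ± 0.11, 0.05 ± 0.11 and -0.05 ± 0.16 (adjusted p = 0.842, 0.907 and 0.918, limma). Without replicate 3 the day 14 difference was -0.17 ± 0.12 (adjusted p = 0.596).

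3 further Fcgr2b probe sets lay above the array median in every liver, and their differences ran from -0.46 to 0.15. 1451941_a_at had 1082, 1096 and 1046 in diclofenac livers on day 3, against 1242, 1338 and 1272 in saline livers, with no overlap. On day 14 it had 615, 528, 972, 697 and 712 in diclofenac livers, against 1152, 1037, 869, 929 and 691 in saline livers. Only the lowest saline liver and the highest diclofenac liver, replicate 3, broke the separation on day 14. Its difference was -0.17 ± 0.10 on day 1, -0.26 ± 0.10 on day 3 and -0.42 ± 0.18 on day 14 (adjusted p = 0.538, 0.421 and 0.461, limma), and -0.54 ± 0.15 on day 14 without replicate 3 (adjusted p = 0.146; exact permutation p = 0.0317, two-sided).

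1435476_a_at had 688, 523, 643, 776 and 638 in diclofenac livers on day 14, against 1126, 859.7, 835, 946 and 739 in saline livers. Replicate 3 did not stand apart with this probe set, and 4 of 5 saline livers lay above all diclofenac livers. The difference was -0.46 ± 0.14 (adjusted p = 0.305, limma; exact permutation p = 0.0159, two-sided). The third, 1455332_x_at, differed by -0.29 ± 0.18, 0.15 ± 0.18 and -0.09 ± 0.14 on days 1, 3 and 14, and the last Fcgr2b probe set (1447622_at) did not pass the filter.

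**Figure D2:**
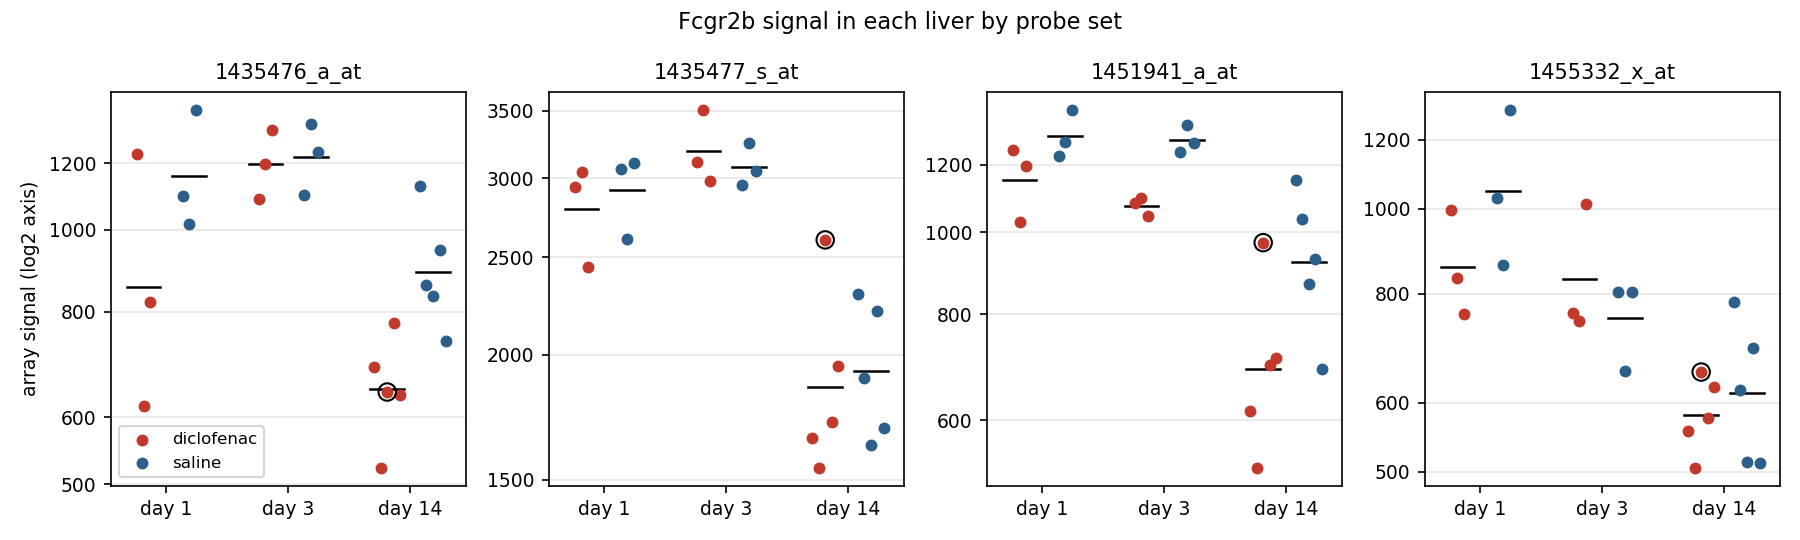
Signal of the 4 Fcgr2b probe sets above the array median in each liver (log2 axis), diclofenac (red) left of saline (blue), bars at the geometric means and diclofenac day 14 replicate 3 ringed. The groups overlap on day 14 in each panel, with the widest gap between the means for 1435476_a_at (log2 difference -0.46) and the ringed liver among the others there.

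The RNA signals of an activating and the inhibitory receptor were compared within each liver as the log2 ratio of Fcgr3 to Fcgr2b. This measure was chosen after the values had been seen, from the members with the highest and the lowest difference on each day. It is therefore given as a description, with no test. Fcgr2b is also made by endothelium, so in whole liver RNA the ratio is not a balance of receptors on 1 cell type. The kept Fcgr2b probe set can also match more than 1 gene. Because the probe sets differ in brightness, the height of the ratio has no meaning, but its difference between groups compares the genes against each other on the same array. On day 1 the ratio was -2.40, -1.66 and -2.02 in diclofenac livers, against -2.64, -2.78 and -3.06 in saline livers. On day 3 it was -2.15, -1.71 and -2.35 in diclofenac livers, against -2.72, -3.08 and -2.72 in saline livers. The groups did not overlap on either day, and the means differed by 0.80 and 0.77.

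On day 14 the ratio was -2.02, -2.75, -0.89, -2.69 and -2.49 in diclofenac livers, against -2.59, -3.26, -2.65, -3.96 and -3.32 in saline livers. The groups overlapped, and the means differed by 0.99, or by 0.67 without replicate 3. With 1435476_a_at or 1451941_a_at as the Fcgr2b probe set, the 5 diclofenac livers lay above the 5 saline livers on day 14, by 1.40 and 1.36 in the mean, and by 0.96 and 1.04 without replicate 3. With 1455332_x_at the means differed by 1.02 and the groups overlapped.

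**Figure D3:**
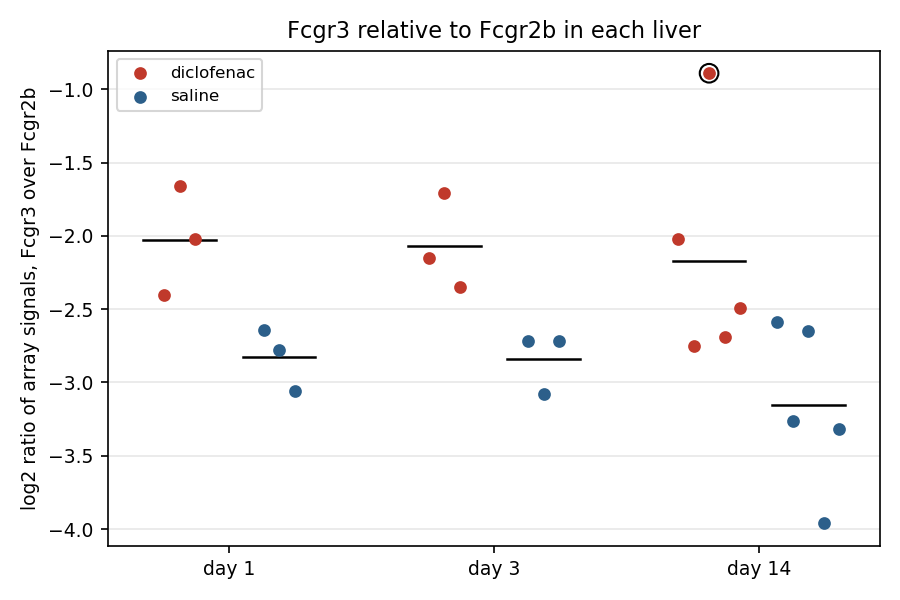
Within-liver log2 ratio of the Fcgr3 signal to the Fcgr2b signal (kept probe sets), diclofenac (red) left of saline (blue), bars at the group means and diclofenac day 14 replicate 3 ringed. All 3 diclofenac livers lie above all 3 saline livers on days 1 and 3, and the groups overlap on day 14, where the ringed liver is at -0.89.

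The adaptor chains were bright and behaved much alike. Fcer1g had 2102, 2044 and 1606.5 in diclofenac livers on day 1, against 1349, 861 and 1308 in saline livers, and 1128, 1949 and 1221 in diclofenac livers on day 3, against 1036, 1078 and 995 in saline livers. The groups did not overlap on either day. The differences were 0.73 ± 0.21 and 0.42 ± 0.21 (adjusted p = 0.27 and 0.489, limma; exact permutation p = 0.1 each, two-sided).

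Tyrobp had 2689, 2248 and 1949 in diclofenac livers on day 1, against 1749.6, 1115 and 1704 in saline livers, again without overlap. On day 3 it had 1569, 2589.5 and 1403 in diclofenac livers, against 1433, 1383 and 1339 in saline livers, where the lowest diclofenac liver fell among the saline livers. The differences were 0.61 ± 0.22 and 0.37 ± 0.22 (adjusted p = 0.325 and 0.577, limma). On day 14 the 4 diclofenac livers other than replicate 3 had 303 to 502 for Fcer1g and 502 to 732 for Tyrobp, against 222 to 484 and 289 to 816 in the 5 saline livers, while replicate 3 had 1827 and 1940.4. The day 14 differences were 0.71 ± 0.43 for Fcer1g and 0.70 ± 0.37 for Tyrobp, and 0.27 ± 0.23 and 0.36 ± 0.25 without replicate 3 (adjusted p between 0.521 and 0.688, limma).

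Of the oxidase genes, the membrane subunits kept to the same pattern. Cyba had 1148, 1174 and 824 in diclofenac livers on day 1, against 694, 512 and 676 in saline livers, and 647, 892 and 554 in diclofenac livers on day 3, against 528, 496 and 425 in saline livers. The groups did not overlap on either day, and the differences were 0.74 ± 0.20 and 0.51 ± 0.20 (adjusted p = 0.251 and 0.36, limma; exact permutation p = 0.1 each, two-sided). Cybb had 1658, 1132 and 934 in diclofenac livers on day 1, against 923, 666 and 869 in saline livers. On day 3 it had 708, 923 and 853 in diclofenac livers, against 651, 582 and 786 in saline livers. Its groups were separate on day 1 and overlapped on day 3, with differences of 0.57 ± 0.20 and 0.30 ± 0.20 (adjusted p = 0.324 and 0.631, limma).

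Ncf1, the cytosolic organiser, was less uniform. It had 395, 459.5 and 196 in diclofenac livers on day 1, against 181, 173 and 267 in saline livers, a difference of 0.69 ± 0.29 with overlap (adjusted p = 0.351, limma). On day 3 it had 275, 386 and 271 in diclofenac livers, against 294, 268 and 283 in saline livers, and the difference of 0.12 ± 0.29 turned to -0.04 without diclofenac day 3 replicate 2. The change between the days, -0.57 ± 0.41, did not pass the test (adjusted p = 0.881, limma).

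On day 14 replicate 3 stood above all other livers for the oxidase genes. It had 821 for Ncf1, 1623 for Cybb and 998 for Cyba, against at most 184, 454 and 257 in the other 9 livers. The signals of Cyba were 218, 257, 998, 157 and 236 in diclofenac livers, against 246, 173, 212, 122 and 136 in saline livers. Those of Cybb were 343, 291, 1623, 200.2 and 454 in diclofenac livers, against 417, 314, 266, 199 and 168 in saline livers. The remaining diclofenac livers lay among the saline livers, apart from 1 above them all for each gene. The differences for Ncf1, Cybb and Cyba were 0.65 ± 0.43, 0.73 ± 0.48 and 0.76 ± 0.43 with it and 0.17 ± 0.18, 0.25 ± 0.28 and 0.31 ± 0.23 without it (adjusted p between 0.54 and 0.778, limma). The 2 further Cybb probe sets differed by 0.94 ± 0.54 and 0.77 ± 0.37 on day 14 and by 0.61 ± 0.50 and 0.41 ± 0.25 without replicate 3, in the same direction, and the other Ncf1 probe sets (1425609_at and 1451767_at) lay under the array median in most livers.

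Across the members, 5 of 8 had all diclofenac livers above all saline livers on day 1 (Fcgr3, Fcer1g, Tyrobp, Cybb and Cyba; 8.23% of all genes), 3 on day 3 (Fcgr3, Fcer1g and Cyba; 10.8% of all genes) and 0 on day 14 (2.18%; 3.2% without replicate 3). The diclofenac livers were uneven: on day 3 replicate 2 lay above the saline mean for 8 of 8 members with a median difference of 0.80, against 0.15 and 0.14 in replicates 1 and 3.

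**Figure D4:**
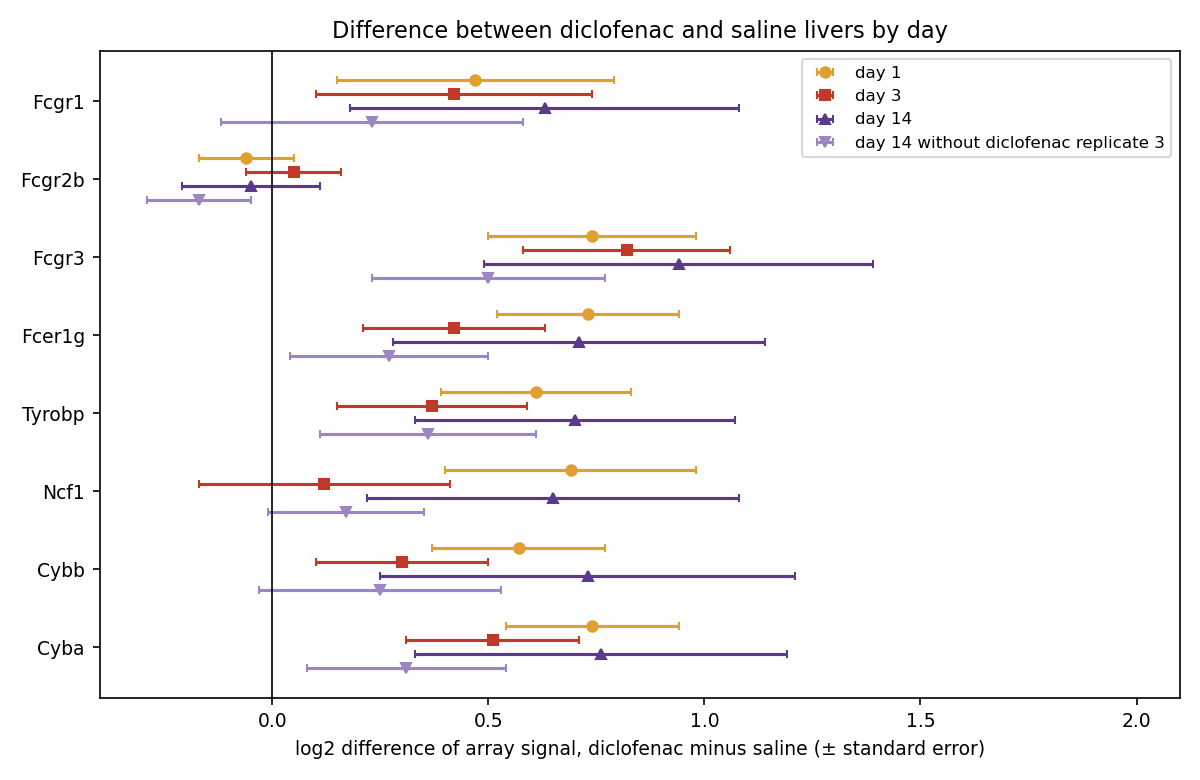
Log2 difference of the array signal, diclofenac minus saline, with its standard error from limma, for the 8 genes on day 1, day 3, day 14 and day 14 without diclofenac replicate 3. 7 genes lie above 0 at each setting, and Fcgr2b lies between -0.17 and 0.05.

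Averaged over days 1 and 3 the differences came nearest to the threshold. Fcgr3 had a mean difference of 0.78 ± 0.17 (adjusted p = 0.055, limma), Cyba 0.62 ± 0.14 (0.0574) and Fcer1g 0.58 ± 0.15 (0.0945), with 0 of 8 members and 87 of 12884 genes (0.675%) past the test. After median centring of the arrays, Fcgr3 and Cyba passed (adjusted p = 0.0434 and 0.0465). They also passed without diclofenac day 1 replicate 3 (0.0399 and 0.0289) and without diclofenac day 3 replicate 3 (0.0369 and 0.0387), and Fcgr3 without diclofenac day 1 replicate 1 (0.0342). The first 2 of these livers had the lowest median difference over the members in their groups (0.4 and 0.14), and the last had the lowest Fcgr3 signal of its group. Leaving them out therefore raised these differences. Over all livers left out in turn, 16 to 326 genes passed for this mean. Fcgr2b had a mean difference of 0.00 ± 0.08 (adjusted p = 0.984).

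The size of the day 14 effect was not shown to differ from the mean of the earlier effects for any member (limma over 22 arrays, adjusted p between 0.964 and 0.982; 3 of 13340 genes passed, 0.0225%). The direction of that difference rested on 1 liver: 7 of 8 members were positive with replicate 3, with a median of 0.17, and 0 of 8 without it, with a median of -0.23 and adjusted p between 0.726 and 0.922. Likewise no member passed the test of day 3 against day 1 (adjusted p between 0.881 and 0.99), where 0 genes passed and 694 had an unadjusted p under 0.05 (5.39%, limma).

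The saline livers themselves differed by day, a comparison added after the values had been seen. 7 of 8 members, all but Ncf1, were lower in day 14 saline livers than in those of days 1 and 3 (limma, adjusted p between 0.00032 and 0.0442; 16.0% of all genes were called lower), with log2 differences that ran from -1.76 ± 0.33 for Fcer1g to -0.64 ± 0.12 for Fcgr2b. When the probe sets of each gene were averaged, 4 members were called, and Fcgr2b (-0.50, adjusted p = 0.0511), Cybb (-0.85, 0.0676) and Fcgr3 (-0.96, 0.0518) were not (limma). The call of Fcgr3 (-0.96 ± 0.35) was also lost with no filter, with the array median added, and without any 1 saline liver other than day 14 replicate 1 or without diclofenac day 1 replicate 3, day 3 replicate 1 or day 14 replicate 1 (0.0504 to 0.12, limma). Ncf1 (-0.78 ± 0.34, adjusted p = 0.0954) was called once diclofenac day 14 replicate 3 was left out. The fall was not particular to the members. Markers of Kupffer cells differed by -2.12 ± 0.28 (Vsig4) to -1.21 ± 0.77 (Marco), apart from C6 (0.52 ± 0.23). Hepatocyte markers were higher, by 0.43 ± 0.12 (Hpx) to 1.77 ± 0.19 (Tat). The part of these markers in the saline differences was not tested. The 18S control probe sets averaged 11.96, 14.62 and 15.66 on the log2 scale in diclofenac livers on days 1, 3 and 14, and 12.05, 14.68 and 15.35 in saline livers. Time and the handling of the arrays of each day cannot be told apart here, and levels were compared between diclofenac and saline only within a day.

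The signals of the members went together over the 22 livers, given here as a description. 21 pairs without Fcgr2b had Spearman correlations of 0.85 to 0.98 with a median of 0.89, and the 7 pairs with Fcgr2b had 0.65 to 0.74 with a median of 0.69. The points share the differences between days and replicate 3. With each group centred and replicate 3 left out, the Pearson correlations were 0.45 to 0.92 (median 0.69) without Fcgr2b and 0.39 to 0.62 (median 0.45) with it.

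Of 13332 other genes, those most like the mean of the 8 members over the 22 livers were Ms4a6b (Spearman 0.986), Adgre4 (0.983), Clec4n (0.981), C1qc (0.98, a chain of complement C1q) and Cd5l (0.979, a macrophage-secreted protein that marks Kupffer cells). After centring the groups and leaving out replicate 3, the Pearson correlation was 0.957 for Cd5l and ran from 0.821 (C1qc) to 0.893 (Adgre4) for the others. The gene nearest to Fcer1g was also Cd5l (0.985), that nearest to Tyrobp (0.975), Cybb (0.977) and Cyba (0.976) was Adgre4, and that nearest to Ncf1 was Fcgr4 (0.945). Fcgr3 had Slc15a3 (0.933), Fcgr1 had Tmsb4x (0.941) and Fcgr2b had 2610001J05Rik (0.912). With the groups centred and replicate 3 left out, the Pearson correlations of single members with these genes ran from 0.625 for Fcgr2b to 0.903 for Fcer1g.

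Among 11 further Fc receptor genes, 9 were on the array and 6 were tested on the early days. Fcgr4, the activating receptor for IgG2a and IgG2b that also signals through Fcer1g, was the only gene of the 6 pathway lists to pass a test of diclofenac against saline. It ranged from 594.5 to 1013 in diclofenac livers on day 1, against 366 to 401 in saline livers, and from 489.8 to 740.1 in diclofenac livers on day 3, against 400.1 to 483 in saline livers. It was higher by 0.72 ± 0.14 in the mean of both days (adjusted p = 0.041, limma), a call that was lost with the mean of its probe sets (0.0543), in the model of all 22 arrays (0.401) and without any 1 of the saline livers or diclofenac day 3 replicates 1 or 2 (0.0755 to 0.102). Its day 14 values were 0.85 ± 0.47 and, without replicate 3, 0.36 ± 0.25 (adjusted p = 0.536 and 0.607). Fcgrt, the neonatal receptor that spares IgG from breakdown, had -0.07 ± 0.10, -0.20 ± 0.10 and -0.38 ± 0.17 on days 1, 3 and 14 (adjusted p = 0.806, 0.509 and 0.444), and -0.23 ± 0.11 on day 14 without replicate 3 (0.39).

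In the lists of partners and downstream genes no gene passed the test in either direction on any day or in the mean of days 1 and 3. A list of receptors that pair with Tyrobp or Fcer1g also held the adaptor Hcst and the related receptors Treml1 and Clec7a. In this list (10 of 17 tested on the early days) the median difference was 0.19, 0.22 and 0.16 on days 1, 3 and 14, and 0.08 on day 14 without replicate 3. The widest values there were on day 1, 1.92 ± 0.78 for Hcst, the adaptor DAP10, and -1.81 ± 0.80 for Trem2, a lipid-sensing receptor of macrophages. Among ITAM effectors (11 of 16 tested on the early days) the medians were 0.08, 0.33 and 0.42, and the day 14 median was 0.13 without replicate 3. Lcp2 (SLP-76, a scaffold) had 1.24 ± 0.40 on day 14 and 0.86 ± 0.28 without that liver, and Btk, a kinase, had 0.92 ± 0.72 on day 3. Syk itself, to which the ITAMs lead, had 0.08 ± 0.33, -0.54 ± 0.33 and 0.56 ± 0.31 on days 1, 3 and 14, and 0.38 ± 0.31 on day 14 without replicate 3.

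On the inhibitory side, ITIM receptors and phosphatases (11 of 13 tested) had medians of 0.25, 0.13 and 0.35, and the day 14 median was 0.17 without replicate 3. On day 14 Pirb, an inhibitory receptor for MHC class I, had 1.67 ± 0.87 and 1.22 ± 0.83 without that liver, and Clec4a2, an inhibitory lectin, had 1.00 ± 0.50 and 0.55 ± 0.37. Inpp5d (SHIP1), the phosphatase that FcγRIIB recruits, had 0.41 ± 0.29, 0.13 ± 0.29 and 0.87 ± 0.40 on days 1, 3 and 14, and 0.69 ± 0.41 on day 14 without replicate 3.

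The remaining oxidase partners (7 of 9 tested) had medians of 0.39, 0.02 and 0.04, and 0.06 on day 14 without replicate 3. Ncf4 (p40phox) had 1.26 ± 0.53 on day 14 and 0.88 ± 0.46 without replicate 3, and Rac2, the leukocyte GTPase of the complex, had 0.83 ± 0.49 and 0.39 ± 0.37. Nox4, an oxidase of non-phagocytic cells, had -0.28 ± 0.20, -0.34 ± 0.20 and 0.35 ± 0.21 on days 1, 3 and 14, and 0.55 ± 0.13 without replicate 3 (adjusted p = 0.0704, limma). Duox1 had 0.07 ± 0.51 and 0.00 ± 0.51 on days 1 and 3.

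Markers of phagocytes were read beside the members. All 9 Kupffer cell markers were measured, and 9 of 9 had positive differences on days 1, 3 and 14 (50.2%, 51.4% and 47.8% of all genes), with medians of 0.45, 0.35 and 0.71, and 0.38 on day 14 without replicate 3, while 0 passed the test. Their summed signal was 30204 to 44992 in diclofenac livers on day 1, against 19194 to 28771 in saline livers, and 27240 to 36984 in diclofenac livers on day 3, against 23311 to 25941 in saline livers. On day 14 it was 35740 in replicate 3 and 11933 to 16367 in the other 4 diclofenac livers, against 8863 to 15285 in saline livers. Counted once for each gene, the widest values were 2.24 ± 0.61 on day 1 for Marco, a scavenger receptor (adjusted p = 0.251, limma), and 0.96 ± 0.35 on day 14 for Csf1r, the receptor for macrophage colony-stimulating factor (0.363), which had 0.65 ± 0.23 without replicate 3 (0.24).

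Neutrophil markers (9 of 11 measured) summed to 1097 to 21938 in diclofenac livers on day 1, against 787 to 1202 in saline livers, and to 1951 to 3020 in diclofenac livers on day 3, against 566 to 607 in saline livers. The height on day 1 was that of 1 diclofenac liver, since the median diclofenac sum was 1466 and the lowest lay under the highest saline sum. Most of the day 3 sum in diclofenac livers was S100a8 and S100a9, with means of 1275.4 and 716.1, against 117.3 and 61.7 in saline livers. Ngp (131.4 against 135.8) and Camp (5.9 against 9.8, under the array median) were not higher on that day. The other measured markers were higher in the mean. On day 14 replicate 3 had 24270 and the other diclofenac livers 742 to 2483, against 391 to 624 in saline livers, and Cxcr2 lay under the array median in all livers of that day. S100a9, an alarmin of neutrophils and monocytes, was higher by 3.13 ± 0.60 in the mean of days 1 and 3 (adjusted p = 0.037; 0.134 in the model of all 22 arrays and 0.0675 to 0.102 without any 1 saline liver or diclofenac day 3 replicate 1 or 2, limma), and its partner S100a8 was higher by 3.88 ± 0.74 on day 14 without replicate 3 (0.0325), against 4.82 ± 1.05 with it (0.136). On day 1 S100a9 ran from 363.4 to 7631.8 in diclofenac livers with a median of 401.7, against 140.4 to 196.8 in saline livers. In saline livers of day 3 it ran from 42.9 to 95.8 and lay above the array median in 1. In saline livers of day 14 S100a8 ran from 5.8 to 97.0 and lay above the array median in 1, so these sizes rest on low signals.

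Monocyte markers (7 of 8 measured) summed to 4669 to 7555 in diclofenac livers on day 1, against 2898 to 4811 in saline livers, to 4968 to 6579 on day 3, against 3490.0 to 3994, and on day 14 to 8433 in replicate 3 and 1859 to 2996 in the other diclofenac livers, against 1075 to 2164 in saline livers. Most of these sums was Lyz2 and Plac8, with day 1 means of 2691.3 and 2739.9 in diclofenac livers, against 2491.4 and 1213.8 in saline livers. Ccr2 was lower in the mean on day 1 (68.5 against 90.2), and Ms4a4c on day 14 (39.6 against 42.1, under the array median). The other means were higher in diclofenac livers on each day. Chil3, a secreted macrophage lectin, was higher by 4.98 ± 0.77 in the mean of days 1 and 3 (adjusted p = 0.0131; 0.0659 and 0.062 without diclofenac day 3 replicate 1 or 2, limma). Its saline signals were 2.1 to 10.3 on day 1 and 3.0 to 13.3 on day 3, all under the array median. Chil3 therefore passed the filter through diclofenac livers only, and the size of its difference rests on signals far under that median. The part of these markers in the members' differences was not tested.

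Endothelial markers, the other main liver source of Fcgr2b, summed to 11010.0 to 13050 in diclofenac livers on day 1, against 10727 to 11913 in saline livers, to 11699 to 13366 on day 3, against 11369 to 12971, and to 6854 to 7280 in diclofenac livers on day 14 besides 10953 in replicate 3, against 7341 to 10147 in saline livers. None passed the test. On day 14 Kdr (-0.71 ± 0.20) and Oit3 (-0.64 ± 0.15) were lower in all diclofenac livers (adjusted p = 0.245 and 0.148, limma), with -0.53 ± 0.14 and -0.63 ± 0.15 without replicate 3. Stab2 (0.31 ± 0.14) and Stab1 (0.12 ± 0.20) were higher in the mean, and the others were lower. The part of these markers in the Fcgr2b values was not tested. Stellate cell markers (6 of 6 measured) summed to 9477 to 11174 in diclofenac livers on day 1, against 12936 to 16141 in saline livers, to 10557 to 13362 on day 3, against 11135 to 12892, and on day 14 to 15900.0 in replicate 3 and 5247 to 10400.0 in the other diclofenac livers, against 9467 to 13345 in saline livers. Of the 6, Reln alone passed a test, and was lower in diclofenac livers in the mean of days 1 and 3 (log2 difference -0.65 ± 0.13, adjusted p = 0.044, limma; 0.853 with the mean of its probe sets and 0.0823 to 0.128 without any 1 saline liver or diclofenac day 3 replicate 1 or 2). Hepatocyte markers summed to 558755 to 761068 in diclofenac livers on day 14, against 508772 to 692672 in saline livers, and erythroid markers (3 of 5 measured) to 1140.0 to 1612, against 1312 to 1865, with 0 called in either list. Dendritic, B and T or NK cell markers summed to at most 757 in any liver, with 0 called. RNA quality moved with the groups on day 14: the log2 ratio of 3 prime to 5 prime control probe sets was 0.74 ± 0.05 in diclofenac livers and 0.62 ± 0.06 in saline livers (SD, n = 5 each, exact permutation p = 0.0238, two-sided), and its part was not tested.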

How the data were processed

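Total liver RNA was profiled on Affymetrix Mouse 430 2.0 arrays, 1 mouse an array. The authors deposited MAS5 signal intensity per probe set on a linear scale, and in these values the mean of each array after trimming 2% was 500.0 (array medians 75.2 to 89.9). The labels name MAS5 and the methods add global median normalization. The version of MAS5 is not given in the sources used here. The labels give 5 animals a group, while the deposited arrays number 3 a group on days 1 and 3. Nothing was pooled, and because arrays carry no depth, their number limits the precision.

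Signals were taken to log2 without an added constant. Probe sets with 1 gene symbol were used (932 had several and 9211 none), and the probe set of highest mean stood for its gene. Genes whose signal exceeded the array median in at least 3 arrays of a model were tested with limma 3.58.1 (R 4.3.3, lmFit and eBayes with trend), in a model of 12 arrays (days 1 and 3), of 10 arrays (day 14) and of all 22 arrays (comparisons between days), with Benjamini-Hochberg adjustment over all genes tested and a threshold of 0.05. Single values were tested by exact permutation of the livers of a day, two-sided. Tables and figures were made with Python 3.11.15, pandas 2.3.3 and numpy 2.4.6. The fits were tested on simulated data.

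Named were all members with each of their probe sets, of each other list up to 4 genes past a test or, where none passed, up to 2 with the widest differences, and the genes of highest Spearman correlation. A few further genes of known role (Fcgrt, Syk, Inpp5d) were named after their values were seen. The members and lists were chosen with earlier results of these data known. Alternatives were the filter, quantile normalization, median centring, an added constant, other probe set rules, array weights, a replicate block, other sets of arrays, the methods' t-test and each liver left out.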

Additional observations from a re-analysis of the deposited data

Results flagged for a closer look

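In the 16 groups of 5 livers on day 14 (8 genes, 2 treatments), 4 held a liver that lay farther from the rest than Dixon's critical value of 0.71. The measure is the gap to the nearest liver over the range of the group, both taken on log2 signals. Each was diclofenac replicate 3: Fcer1g with a signal of 1827.3 (0.718), Tyrobp with 1940.4 (0.721), Ncf1 with 821.3 (0.823) and Cyba with 998.0 (0.735). Chance gives about 1 such group in 20 where no liver was singled out beforehand. Replicate 3 was already known to stand apart, so the flags describe this liver and are not further support. The groups are not independent, since they are the same livers. The same liver had 24270 for the summed neutrophil markers and 35740 for the summed Kupffer cell markers, and their part in these values was not tested.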

How the results depend on the processing

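No member passed a diclofenac test on days 1, 3 or 14 under any limma alternative that was run. By the methods' t-test at their threshold (unadjusted p with a fold change over 1.5), 188 genes and 1 member passed on day 1, 321 genes on day 3 and 284 on day 14, and after Benjamini-Hochberg adjustment 0 genes passed on day 3. The count of genes on day 3 (26) was 16 with no filter, 14 with quantile normalization, 12 with the mean of all probe sets, 156 with array weights, 3 with the replicate block, 145 with each day on its own arrays and 1 in the model of all 22 arrays. The mean of days 1 and 3 (87 genes) gave 50 with the mean of all probe sets, 190 with array weights, 56 with the block and 32 in the model of all 22 arrays, and 2 members passed with median centring and with array weights. Day 14 (0 genes) gave 3 with quantile normalization, 16 with centring, 2 with the array median added, 109 with array weights, 1 with the block and 133 in the model of all 22 arrays. The comparison of day 14 with the earlier effects (3 genes) gave 0 with no filter, with centring, with the mean of all probe sets and with every probe set, 14 with array weights and 1 with the block. In the saline comparison 4 members passed with the mean of all probe sets. Replicate numbers did not pair the livers: 1 of 11 same-numbered pairs had a correlation of deviations over 0.1 (-0.106 to 0.113). The replicate block moved no diclofenac call of a member, while Fcgr4 for the mean of days 1 and 3 (adjusted p = 0.0583, limma) and Fcgr3 in the saline comparison (-0.65, 0.223) were no longer called with it.

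Leaving out each liver in turn gave 0 to 5 genes on day 1, 0 to 178 on day 3, 16 to 326 for their mean, 0 to 2 for day 3 against day 1, 0 to 123 on day 14 (123 without diclofenac replicate 3), 0 to 17 for day 14 against the earlier effects (17 without that liver) and 3265 to 4684 in the saline comparison. Members past the test numbered 0 to 2 for the mean of days 1 and 3, 6 to 8 in the saline comparison and 0 in the others.

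Fcgr2b was 0.00 for the mean of days 1 and 3 with quantile normalization and 0.10 on day 14 with the mean of all probe sets. Fcgr1 for day 3 against day 1 was 0.01 with the array median added, 0.25 with the mean of all probe sets and 0.12 with array weights. For day 14 against the earlier effects, array weights gave -0.29 for Cyba, -0.25 for Cybb, -0.32 for Fcer1g, -0.16 for Fcgr1, -0.28 for Fcgr3, -0.10 for Ncf1 and -0.17 for Tyrobp, and the mean of all probe sets gave 0.14 for Fcgr2b and -0.27 for Ncf1. Over the livers left out in turn Fcgr2b ran from -0.14 to 0.03 on day 1, -0.02 to 0.10 on day 3, -0.05 to 0.04 for their mean, -0.17 to 0.02 on day 14 and -0.17 to 0.02 for day 14 against the earlier effects, and Ncf1 from -0.04 to 0.21 on day 3. For day 3 against day 1 Fcgr1 ran from -0.39 to 0.40 and Fcgr3 from -0.17 to 0.33. For day 14 against the earlier effects the ranges were -0.31 to 0.36 for Cyba, -0.18 to 0.57 for Cybb, -0.31 to 0.34 for Fcer1g, -0.22 to 0.41 for Fcgr1, -0.28 to 0.37 for Fcgr3, -0.24 to 0.41 for Ncf1 and -0.12 to 0.41 for Tyrobp, each lowest without diclofenac day 14 replicate 3. The cause of these changes was not tested.

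With 3 livers a group on days 1 and 3 the exact test cannot go below 0.1. The further Ncf1 probe sets exceeded the array median in few livers, and the probes of the kept Fcgr2b probe set can match more than 1 gene.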
